A study of Danio rerio with 12 samples.

Results

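Gene expression in the offspring of zebrafish fed a diet with 10 ppm methylmercury (MeHg) was compared, gene by gene, with that in the offspring of control fish. All animals were of the EK strain. The 10 ppm group was the first generation (F1) born to parents that had a 10 ppm MeHg diet for life, and the control group was the F1 of parents kept likewise on 0 ppm MeHg. Each group had 3 libraries, made from pools of 5 whole embryos at 5 days post-fertilisation. The embryos were thus exposed through their parents and not through a diet of their own, as far as the labels say. The 6 libraries belong to a series of 12. The other 6 came from parents on 1 and 3 ppm MeHg and enter here through the estimate of the spread and as a check of where the 10 ppm values lie. The comparison covered the 18390 genes with a mean scaled count of at least 10 over the 12 libraries, out of 32674 in the table. A scaled count is the number of sequenced fragments of a gene divided by 1 factor per library. Whether the 3 pools of a group came from separate clutches is not stated, so every test below measures the spread between these pools, which may be technical.

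MeHg is an organic mercury compound that builds up along aquatic food chains, crosses the placenta and the blood-brain barrier, and passes from mother fish into the egg. It binds thiol and selenol groups of proteins, and the developing nervous system and the retina are its best known targets. Among the processes it is known to disturb in animals are glutamate uptake by glial cells, signalling by the inhibitory transmitter GABA, mitochondrial respiration and the selenium-dependent enzymes that handle peroxides. At 5 days a zebrafish larva has working eyes dominated by cones, a beating heart, swimming muscle, a liver and pancreas, and a light-entrained circadian clock in most tissues.

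Recovered depth was 8.07, 8.02 and 11.8 M (mega) fragments in the 10 ppm libraries and 7.04, 9.62 and 7.42 M in the controls. Correlations over the tested genes lay between 0.970 and 0.978 among the 10 ppm libraries, between 0.954 and 0.977 among the controls, and between 0.951 and 0.976 across the groups. The 3 controls were not alike in clock state. A score of 53 clock genes, their first principal component, was -5.29, -4.50 and -4.91 in the 10 ppm libraries, against -3.55, 9.76 and 11.1 in the controls, so control 1 resembled the 10 ppm libraries in this respect and controls 2 and 3 did not. Clock state and diet were therefore partly confounded, and differences are also given below against control 1 alone and against controls 2 and 3 (without control 1). The hour of sampling was not analysed here. Defining markers of the whole larva were present in every library, among them those of rods, cones, neurons, muscle, liver, pancreas, lens, skin and blood. Of the egg-derived markers zp2.1 and buc, both lay under the minimum mean and were listed at 0 in at least 1 library. The germ line marker ddx4 of the same set reached the minimum mean and was not listed at 0. The 3 together summed to 39.3 to 55.4 scaled counts at 10 ppm and 40.3 to 57.1 in controls.

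No single gene passed at 10 ppm against control. With limma, 0 of 18390 genes (0%) had an adjusted p under 0.05, and limma-voom on the recovered fragments also called 0. At an unadjusted p under 0.05 there were 1050 genes (5.71%), 531 higher (2.89%) and 519 lower (2.82%) at 10 ppm. The values of the 3 libraries of 10 ppm did not overlap those of the 3 controls for 1020 higher genes (5.55%) and 884 lower genes (4.81%). Of these, 60 were higher and 64 lower by more than 1 on the log2 scale. With 3 libraries on each side, groups that do not differ separate fully, on average, in shares of genes near 5.55% and 4.81%. Lack of overlap in a single gene is therefore not by itself evidence of a difference. The median log2 difference over all tested genes was 0.01, with 9659 genes (52.5%) above 0 and 8731 (47.5%) below. Log2 differences are 10 ppm minus control on the scale of log2(scaled count + 1), which understates the change of low genes. Without control 1, 41 genes passed (0.223%), 16 higher and 25 lower. With library weights estimated by limma 38 passed (0.207%), 17 higher and 21 lower, and 22 genes were in both sets. The weight was 0.449 for control 1 and 0.615, 1.14 and 1.81 for the 10 ppm libraries. With FPKM values (fragments scaled by transcript length and by library) 1 gene passed (0.00544%), which was kera. Because no gene passed on the scaled counts with all 12 libraries at equal weight, the genes below are described by their values. RNA of pooled whole larvae cannot separate fewer cells of a type from less RNA per cell.

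**Figure D1:**
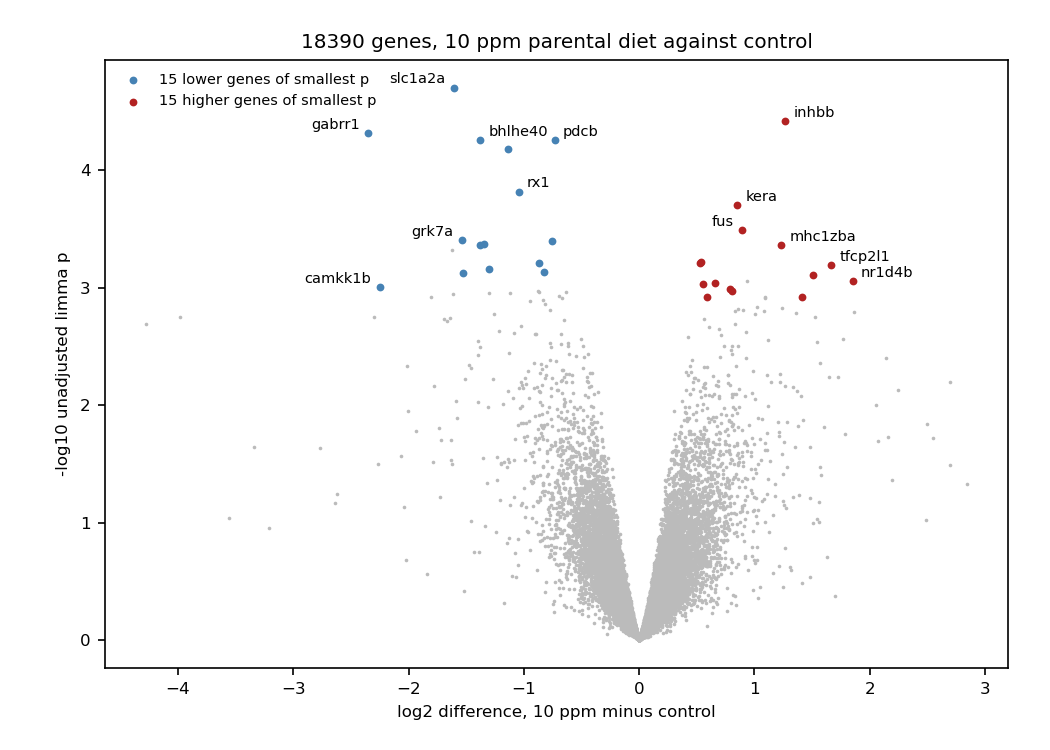
Log2 difference (10 ppm minus control, horizontal) against the unadjusted limma p as -log10 (vertical) for the 18390 tested genes, with the 15 lower genes of smallest p in blue and the 15 higher ones in red. The gene of smallest p, slc1a2a, lies at -1.61, and inhbb leads the higher side at 1.27.

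The lower genes of smallest p included a glutamate transporter gene, a GABA receptor gene and 4 genes of the retinal lists, and the higher ones included the genes of a growth factor subunit, a corneal proteoglycan and a class I histocompatibility molecule. Of the 15 lower genes of smallest p, the 4 that belong to lists of retinal genes were pdcb, rx1, grk7a and irbp, and 1 belongs to the clock lists (bhlhe40). Of the 15 higher ones, 0 belong to the retinal lists and 3 to the clock lists (nr1d4b, hlfb and aanat2). Of the 18390 tested genes, the 4 retinal lists hold 23, 25, 22 and 34 and the clock lists together 53. All 30 had non-overlapping values in the 2 groups and kept their direction in each alternative that tested them. They were chosen by p from these same libraries, so neither property is separate evidence of a difference. For 6 of the 15 lower genes the 10 ppm values lay below those of all 9 other libraries of the series, and for 4 of the 15 higher genes they lay above all 9. Over all tested genes this was so for 62 (0.337%) and 81 (0.44%). A larger share among the 30 follows from choosing them by p, because the controls are among the 9 libraries.

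**Figure D2:**
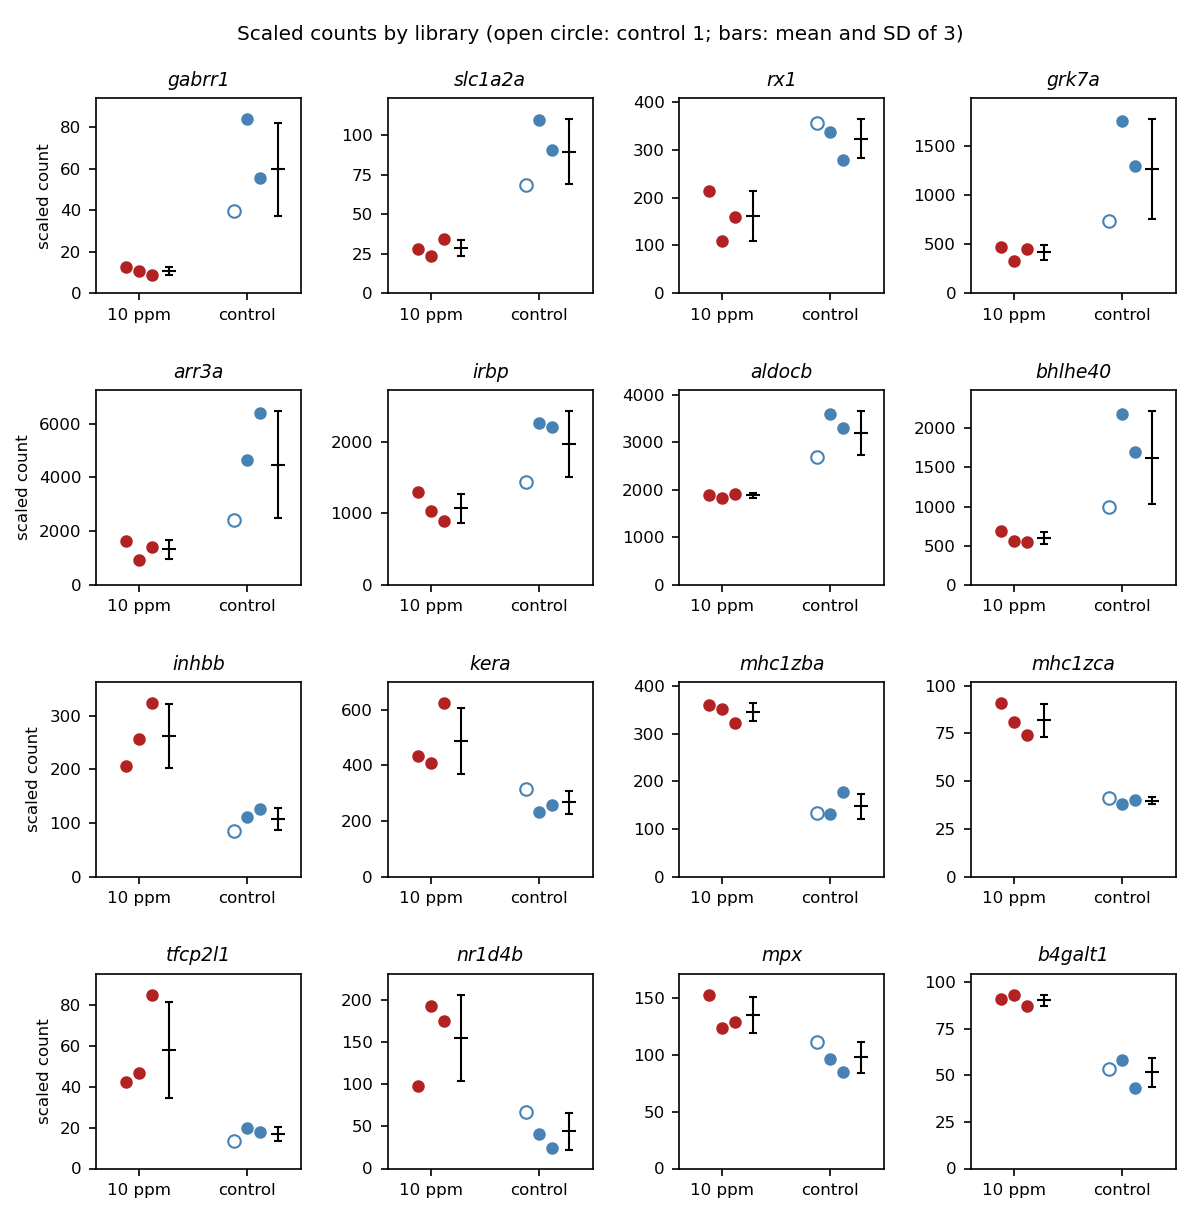
Scaled counts (vertical, from 0) of 16 genes in the 3 libraries of 10 ppm (red) and the 3 controls (blue; control 1 open), with the mean and SD of each group. In each of the 16 panels the 10 ppm values lie wholly below or wholly above the control values, and control 1 is often the control nearest to them, as for grk7a, irbp and nr1d4b.

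Transmission by GABA was examined first among the neural genes. The gene gabrr1 (ENSDARG00000043902) encodes the rho1 subunit of ionotropic GABA receptors, which in mammals sits on retinal bipolar cells. Its scaled counts were 12.4, 10.5 and 8.54 in the 10 ppm libraries, against 39.5, 83.9 and 55.6 in the controls. The highest 10 ppm value was below the lowest control value, which was that of control 1. The log2 difference was -2.35 (SE 0.40, 95% interval -3.22 to -1.48; limma adjusted p = 0.202), and it was -1.83 against control 1 alone and -2.61 against controls 2 and 3. In FPKM the means were 1.39 at 10 ppm and 7.78 in controls.

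Another rho subunit gene, gabrr2a, had 17.4, 11.3 and 15.4 at 10 ppm and 27.2, 42.7 and 23.3 in controls (log2 difference -1.01, SE 0.36). The gene gabra6a encodes an alpha subunit known from cerebellar granule cells, and its values were 70.3, 68.6 and 67.1 at 10 ppm, against 95.8, 124 and 111 in controls. These 10 ppm values were close together and lay below all 9 other libraries of the series (log2 difference -0.67, SE 0.16). For arhgef9b, a collybistin gene that helps to place receptors at inhibitory synapses, the log2 difference was -0.47. The gene slc32a1, which encodes the transporter that loads GABA into vesicles and was chosen after its values were seen, had 395, 383 and 368 at 10 ppm and 477, 511 and 469.6 in controls (log2 difference -0.35). Over the 29 tested genes of the GABA system, 12 were higher and 17 lower, with a median of -0.07 against 0.01 over all genes. At an unadjusted p under 0.05 there were 7 lower and 0 higher members, beside 2.82% and 2.89% of all genes. Of the members, 8 were lower without overlap between the groups, beside 4.81% of all genes. The median was -0.32 against control 1 alone and 0.02 against controls 2 and 3, so the position of the whole list depended on the controls, whereas gabrr1, gabrr2a and gabra6a were lower against either kind.

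On the glutamate side, slc1a2a (ENSDARG00000052138) encodes a transporter that clears glutamate from synapses. It had 28.1, 23.4 and 34.1 scaled counts at 10 ppm, against 68.5, 109.8 and 90.5 in controls. No 10 ppm library came near the lowest control, and the 10 ppm values were also below those of the 1 and 3 ppm libraries. The log2 difference was -1.61 (SE 0.25, 95% interval -2.15 to -1.06; limma adjusted p = 0.202), with -1.25 against control 1 alone. Another member of the family, slc1a8b, had -1.03 with overlapping groups (and -0.56 against control 1 alone), and slc1a7a, a transporter gene of the retina, lay the other way at 1.79, but at 0.48 against control 1 alone. The list of glutamate transport and cycle genes had 10 members higher and 10 lower and a median of 0.03, but 6 higher and 14 lower and a median of -0.17 against control 1 alone. Of the 32 tested glutamate receptor genes 23 were higher and 9 lower (median 0.11), 0 at an unadjusted p under 0.05 in either direction, and the median turned to -0.15 against control 1 alone.

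The position of broader neural lists depended on the controls. Synaptic vesicle genes had 25 members higher and 30 lower, with a median of -0.03, but 6 higher and 49 lower against control 1 alone, with a median of -0.17. Within them syt13, a synaptotagmin gene, had 228, 213 and 192 at 10 ppm and 269.7, 343 and 319 in controls (log2 difference -0.55, and -0.36 against control 1 alone), without overlap. The log2 difference was -0.39 for sv2ba, a vesicle glycoprotein gene, and -0.22 for sypb, a synaptophysin gene, both also without overlap, and -0.49 and -0.08 against control 1 alone. Neuron markers had a median of 0.02 over 38 genes and of -0.06 against control 1 alone (11 higher and 27 lower). The summed scaled counts of the defining neuron markers elavl3, elavl4 and snap25a were 4469.8 to 5224 at 10 ppm and 4294 to 5054 in controls. The serotonin transporter gene slc6a4a was at 0.36. Myelin and glia genes had a median of -0.01, and among them olig2, a transcription factor gene of the oligodendrocyte and motor neuron lineage, had 49.6, 49.3 and 55.8 at 10 ppm and 83.5, 67.8 and 82.5 in controls (log2 difference -0.58, SE 0.18, and -0.69 against control 1 alone). In the same list olig1 lay the other way without overlap, with 24.0, 24.2 and 31.9 at 10 ppm and 22.8, 23.1 and 16.1 in controls. Its log2 difference was 0.36 (SE 0.26, and 0.20 against control 1 alone).

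In the retina, light is caught by opsins, the signal passes through transducin to a phosphodiesterase and cyclic nucleotide gated channels, and kinases and arrestins end it. Cones serve colour and daylight vision, and rods dim light. For grk7a, the cone opsin kinase gene, scaled counts were 469, 332 and 446 at 10 ppm and 739.8, 1762 and 1300.5 in controls. The groups did not overlap, and control 1 stood between the 10 ppm libraries and the other controls (log2 difference -1.54, SE 0.31; -0.85 against control 1 alone; limma adjusted p = 0.525). Its paralog grk7b had -0.91, and -0.64 against control 1 alone. The cone arrestin gene arr3a had 1620.1, 910.0 and 1422 at 10 ppm and 2404, 4637 and 6379.5 in controls (log2 difference -1.69, SE 0.41, and -0.91 against control 1 alone).

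The gene pdcb (ENSDARG00000017634) encodes a phosducin, which binds the beta and gamma subunits of transducin. Its values were 612, 451 and 544 at 10 ppm, against 829, 912 and 914 in controls, and the 3 controls were close to each other. Its log2 difference of -0.73 (SE 0.13, 95% interval -1.01 to -0.46; limma adjusted p = 0.202) was -0.64 against control 1 alone and -0.78 against the others, so this difference was nearly the same against either kind of control. The cone transducin gene gnat2 had 5130.5, 4207 and 5276 at 10 ppm and 6878, 6255 and 4937 in controls, which overlap. The long-wavelength opsin gene opn1lw1 was higher, with 423, 179 and 364 at 10 ppm and 163, 39.9 and 14.3 in controls. The lowest 10 ppm library was only just above control 1 (log2 difference 2.69, SE 0.78, and 0.88 against control 1 alone). Its tandem copy opn1lw2, chosen after its values were seen, had 16278, 10262 and 15326 at 10 ppm and 13578, 6513 and 3823 in controls. These groups overlap, and the log2 difference of 0.97 was 0.01 against control 1 alone. The copies are near-identical, and how fragments were shared between them is not known here.

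Genes of the calcium feedback that restores the cone after light were examined after their values were seen. The guanylate cyclase activator gene guca1g had 50.4, 17.8 and 14.2 at 10 ppm and 35.1, 83.2 and 72.6 in controls, which overlap (log2 difference -1.31, SE 0.44, and -0.56 against control 1 alone). The cyclase gene gc3 had 226, 233 and 195 at 10 ppm and 243, 417 and 384 in controls, without overlap (log2 difference -0.64, SE 0.19, and -0.16 against control 1 alone).

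Over the cone list, 16 of the 23 tested genes were lower and 7 higher, with a median of -0.30. At an unadjusted p under 0.05 there were 9 lower and 4 higher members, against 2.82% and 2.89% of all genes, and 0 passed after adjustment. The median stayed between -0.44 and -0.20 when any 1 of the 6 libraries was left out. In single libraries, the median deviation of the list from the mean of the 12 libraries was 0.06, -0.25 and -0.04 at 10 ppm and 0.29, 0.39 and 0.02 in controls, so the groups overlapped through control 3. With all controls, the list held members in both directions. Its 4 higher members at that threshold were the opsin genes opn1lw1, opn1lw2 and opn1mw2 and the transducin subunit gene gngt2a. Of these, opn1mw2 was also chosen after its values were seen. The lower members at that threshold included grk7a, grk7b, arr3a, guca1g and gc3. Against control 1 alone 2 members of the list were higher and 21 lower, with a median of -0.35, and gngt2a had -0.01. With the clock score as a covariate 3 were higher and 20 lower. The summed scaled counts of the 3 cone markers opn1sw1, gnat2 and arr3a were 20990.4 to 26940.1 at 10 ppm and 25464 to 35418 in controls.

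Of the 25 tested rod genes, 18 were lower and 7 higher, with a median of -0.12, -0.29 against control 1 alone and -0.02 against controls 2 and 3. At an unadjusted p under 0.05 there were 5 lower and 1 higher members, beside 2.82% and 2.89% of all genes. Without overlap between the groups, 4 members were lower (rp1l1b, sagb, pdca and rp1) and 1 was higher, beside 4.81% and 5.55% of all genes. The arrestin gene sagb of the rod list had 728, 522 and 787 at 10 ppm and 901, 1011 and 1474 in controls (log2 difference -0.72, and -0.43 against control 1 alone). The axoneme gene rp1 had 59.5, 42.0 and 36.4 at 10 ppm and 86.1, 64.3 and 63.6 in controls (log2 difference -0.64, and -0.92 against control 1 alone), and its relative rp1l1b had -1.21, but -0.42 against control 1 alone. The phosducin gene pdca had -0.70, close to the -0.73 of its paralog pdcb. Summed counts of the rod markers rho, gnat1 and saga were 6261 to 12857 at 10 ppm and 9068 to 11309.8 in controls, with the highest value in 10 ppm library 3.

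**Figure D3:**
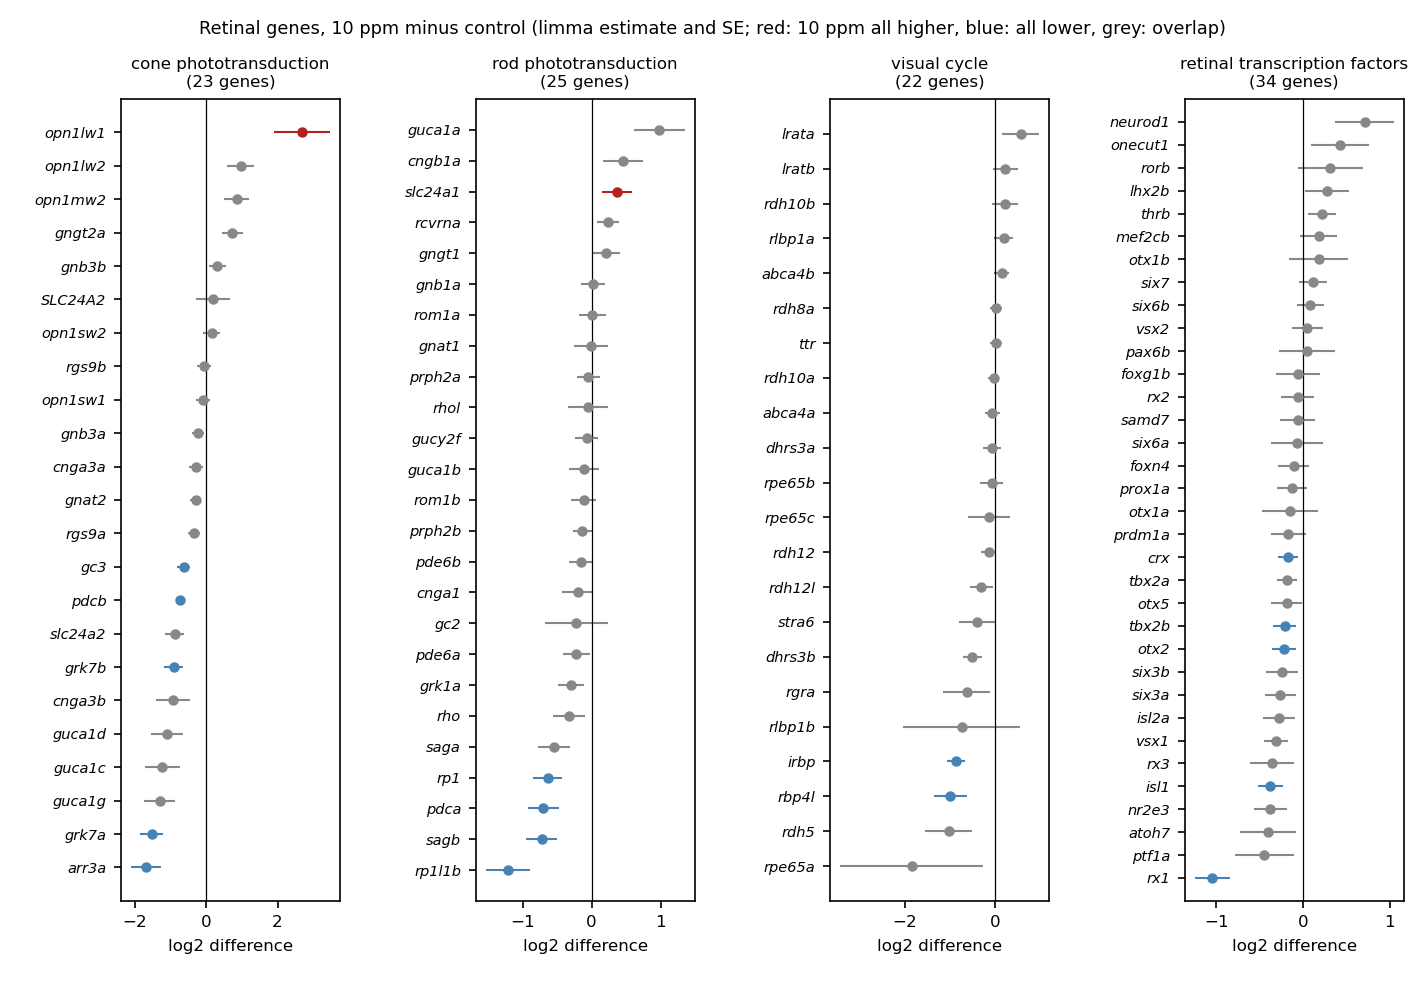
Log2 difference (10 ppm minus control, with its SE) of each tested gene in the lists of cone phototransduction, rod phototransduction, visual cycle and retinal transcription factors, with genes whose groups do not overlap in blue (10 ppm lower) or red (10 ppm higher). Cone genes spread from -1.69 for arr3a to 2.69 for opn1lw1, while rx1 stands at -1.04 at the bottom of the transcription factors.

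The matrix around photoreceptors and the visual cycle, which returns retinal to its active form, held more genes of small p. The gene irbp, which encodes the retinoid carrier of that matrix, had 1295, 1029.5 and 893 at 10 ppm and 1445, 2265 and 2215 in controls. Control 1 lay little above the highest 10 ppm library (log2 difference -0.87, SE 0.20, and -0.45 against control 1 alone). The proteoglycan gene impg1b of the same matrix had 21.5, 20.2 and 29.0 at 10 ppm and 41.3, 76.9 and 76.2 in controls (log2 difference -1.38, SE 0.30, and -0.80 against control 1 alone). The retinol-binding protein gene rbp4l had -0.99, but -0.19 against control 1 alone. Of the 22 visual cycle genes, 15 were lower and 7 higher, with a median of -0.10, and of 0.0007 against control 1 alone.

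Among retinal transcription factors rx1 (ENSDARG00000071684), a retinal homeobox gene that acts in photoreceptor formation, had 214, 109.8 and 159 at 10 ppm, against 356, 336 and 278 in controls. Every 10 ppm library was below every other library of the series. The log2 difference of -1.04 (SE 0.20, 95% interval -1.48 to -0.61; limma adjusted p = 0.398) was as large against control 1 alone (-1.19) as against controls 2 and 3 (-0.97). The LIM homeobox gene isl1, a gene of retinal ganglion and other neurons, had 304, 317 and 312 at 10 ppm and 396, 408 and 405 in controls, with both groups narrow (log2 difference -0.37), and vsx1, a bipolar cell factor, had -0.31 with overlapping groups. The gene neurod1 of this list lay the other way, with 1962, 2045 and 2402 at 10 ppm and 2436.5, 1008 and 894 in controls. These groups overlap, and the log2 difference of 0.71 (SE 0.34) was -0.195 against control 1 alone. Over the list 23 of 34 were lower (median -0.14). The ankyrin repeat gene ankrd33aa, which is in no list, had 19.8, 12.1 and 18.2 at 10 ppm and 30.8, 76.9 and 50.2 in controls (log2 difference -1.53, and -0.87 against control 1 alone).

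Clock genes differed between the groups mostly through controls 2 and 3, so their values are given with both kinds of control. In the clock, Clock and Bmal proteins (here clocka and the arntl genes) switch on their own repressors, the per, cry, nr1d and bhlhe genes. The repressor gene per1b had 52.1, 52.5 and 54.1 at 10 ppm and 78.2, 864 and 721 in controls (log2 difference -2.77, and -0.56 against control 1 alone). The repressor gene bhlhe40 had 682, 559.6 and 545 at 10 ppm and 992, 2178 and 1701 in controls. Its log2 difference was -1.38 (SE 0.24; limma adjusted p = 0.202) and -0.74 against control 1 alone, with 10 ppm below all 9 other libraries. The same held for per3, with 36.4, 39.6 and 29.0 at 10 ppm and 72.9, 260.2 and 282 in controls (-2.30, and -1.05 against control 1 alone). For cry1b the log2 difference was -0.67, and -0.25 against control 1 alone.

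In the opposite direction, nr1d4b, a gene of the Rev-erb family of nuclear receptors, had 97.5, 194 and 175 at 10 ppm and 67.7, 40.6 and 24.2 in controls (log2 difference 1.85, SE 0.42, and 1.13 against control 1 alone). The melatonin enzyme gene of the pineal, aanat2, had 56.2, 60.6 and 95.0 at 10 ppm and 36.0, 18.9 and 23.3 in controls (1.41, and 0.91 against control 1 alone). The log2 difference of the clock output gene hlfb was 1.51, and 1.03 against control 1 alone. That of the activator gene clocka was 1.57, and 0.51 against control 1 alone. For arntl2 the values were 1.54 and 0.69, and for the repressor gene nfil3-5 they were 2.50 and 0.66. The median of the 23 repressors was -0.73 against all controls and 0.04 against control 1 alone, and that of the 11 activators was 0.91 and -0.01. The values against control 1 alone rest on 1 control library and have no replicate check.

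**Figure D4:**
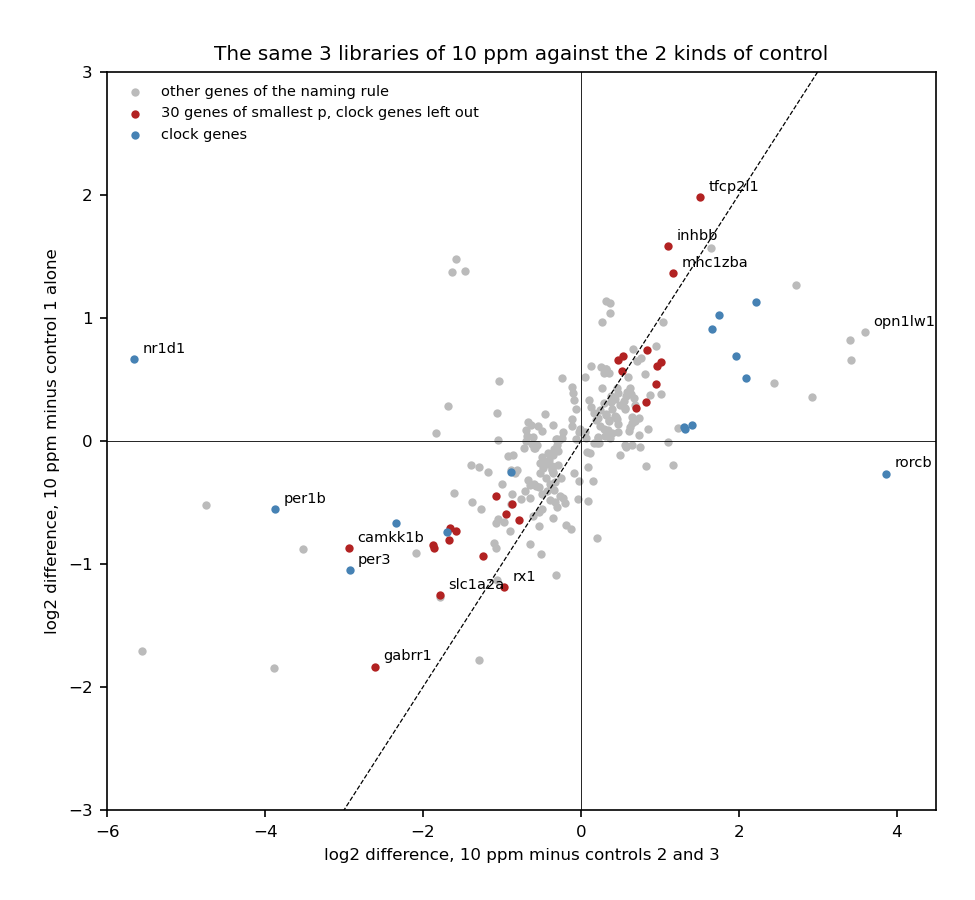
Log2 difference of the 10 ppm libraries against controls 2 and 3 (horizontal) and against control 1 alone (vertical) for the genes of the naming rule, with clock genes in blue, other genes among the 30 of smallest p in red and the dashed line marking equal values. The genes rx1, inhbb, tfcp2l1 and mhc1zba lie beside or beyond the line, whereas per1b (-3.87 and -0.56) and camkk1b (-2.94 and -0.87) lie far from it.

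The remaining lower genes of smallest p include genes of calcium signalling. The kinase gene camkk1b, which acts upstream of calcium/calmodulin-dependent kinases, had 23.1, 13.7 and 12.5 at 10 ppm and 29.9, 115 and 144 in controls (log2 difference -2.25, SE 0.52, and -0.87 against control 1 alone). The neuronal calcium sensor gene ncaldb had 205, 143 and 126 at 10 ppm and 253, 506 and 474 in controls (-1.34, and -0.71 against control 1 alone). The beta-lactamase-like gene lactbl1a had 54.6, 38.0 and 44.4 at 10 ppm and 87.0, 125 and 93.2 in controls (-1.14; limma adjusted p = 0.202). Among genes without a described role here, zgc:73075 had -0.83 and si:dkey-97a13.12 had -1.30, and against control 1 alone they had -0.59 and -0.73. The largest log2 difference among lower genes with a symbol and no overlap was that of si:dkey-18a10.3, with 0.827, 0.807 and 1.14 at 10 ppm and 5.27, 73.4 and 109 in controls. Control 1 was again far nearer to the 10 ppm libraries than controls 2 and 3.

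Single genes of sugar metabolism were lower at 10 ppm, and lists of energy metabolism depended on which libraries were used. The brain aldolase gene aldocb had 1897, 1827 and 1923 at 10 ppm, within a narrow range, and 2689.6, 3597 and 3306 in controls (log2 difference -0.75, SE 0.16, and -0.52 against control 1 alone). The glucose transporter gene slc2a1a had 76.0, 53.3 and 60.9 at 10 ppm and 139, 137 and 126 in controls. Here the 3 controls were alike, and the log2 difference of -1.08 (SE 0.29) was -1.13 against control 1 alone and -1.06 against the others. The 1 ppm libraries had 60.4, 144 and 52.7, and the 3 ppm libraries 72.2, 84.4 and 78.4. The glycolytic genes gapdhs (-0.39) and gpia (-0.32) also had non-overlapping groups. In the glycolysis and gluconeogenesis list 7 of 50 members were lower and 0 higher at an unadjusted p under 0.05, beside 2.82% and 2.89% of all genes, while 22 of the 50 had a difference above 0 and the median was -0.04.

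Nuclear genes of oxidative phosphorylation were lower in 75 of 80 cases with a median of -0.19, yet 0 reached an unadjusted p under 0.05. By library, the median deviations were 0.05, -0.27 and 0.05 at 10 ppm and -0.10, 0.16 and 0.28 in controls, so 10 ppm library 2 was the lowest, and control 1 lay between it and the other 10 ppm libraries. The median was 0.02 against control 1 alone and -0.07 without 10 ppm library 2. All 13 genes of the mitochondrial genome were lower (median -0.20), for example mt-nd1 with 10963, 9253 and 11118 at 10 ppm and 12105, 12281 and 17006 in controls, and their median was -0.20 against control 1 alone but -0.08 without 10 ppm library 2.

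Genes of the defence against metals and peroxides had list medians a little below 0 with all controls. The metallothionein gene mt2, whose product binds mercury, zinc and copper, had 259.5, 169.6 and 195 at 10 ppm and 324, 354 and 459 in controls. All 10 ppm values were below all control values (log2 difference -0.87, SE 0.21, 95% interval -1.32 to -0.42, and -0.66 against control 1 alone). The copper transporter gene atp7a had 0.37. The 23 metal handling genes had a median of -0.01. Of 28 selenoprotein genes 22 were lower (median -0.17), with 4 lower and 0 higher at an unadjusted p under 0.05, beside 2.82% and 2.89% of all genes. Among them sepw1 had 1332, 924 and 1286 at 10 ppm and 1364, 1439 and 1580.1 in controls (log2 difference -0.32), selt1b had -0.32, and the deiodinase gene dio1, which converts thyroid hormone, had -0.78 with overlapping groups, and -0.35 against control 1 alone. The median of the list was -0.06 without 10 ppm library 2. The Nrf2 and glutathione list held 16 higher and 24 lower members of 40, with 0 at an unadjusted p under 0.05 in either direction and a median of -0.05.

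Chaperone genes were lower in 36 of 54 cases (median -0.12), but their median was 0.01 against control 1 alone. An exception was hspa4l, with 209.9, 130.0 and 150.2 at 10 ppm and 245, 223 and 267 in controls. Its log2 difference was -0.61 and -0.61 against control 1 alone, while hsp90aa1.2 had -0.87 and -0.25. For hspa4l the 3 ppm libraries were lower still (119, 118 and 127), and the 1 ppm libraries had 165, 221 and 215. The stress-induced gene nupr1 was higher, with 676, 614 and 582 at 10 ppm and 498, 525 and 345 in controls (0.47, SE 0.15). The 1 ppm libraries were higher still (856, 799 and 777), and the 3 ppm libraries had 534, 567 and 532. The list of unfolded protein and integrated stress genes had a median of 0.02. DNA replication genes had 42 of 64 members lower and a median of -0.25. Of the members, 14 were lower and 1 higher without overlap, beside 4.81% and 5.55% of all genes. Within them gins4 had -1.01 at low counts of 6.61, 6.46 and 7.97 at 10 ppm and 13.2, 15.4 and 17.0 in controls, and the helicase gene mcm5 had -1.08, but -0.49 against control 1 alone. The list median was -0.11 against control 1 alone and -0.12 without 10 ppm library 2, the library with the lowest deviation. The stress gene gadd45bb had -0.67 (and -0.24 against control 1 alone) with 10 ppm below all 9 other libraries, and the cytochrome P450 gene cyp2ad2 had -0.76.

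Among higher genes, inhbb (ENSDARG00000040777) led. It encodes the beta B subunit that forms activin B and inhibin B, growth factors that act on the pituitary and the gonad and in tissue patterning. Scaled counts were 206, 257 and 324 at 10 ppm, against 85.2, 112 and 126 in controls. Control 1 was the lowest control here, so the log2 difference of 1.27 (SE 0.21, 95% interval 0.81 to 1.73; limma adjusted p = 0.202) was 1.58 against control 1 alone and 1.11 against the others. Other ligand genes of the same superfamily lay in both directions. The gene tgfb1a had 74.4, 73.5 and 71.1 at 10 ppm and 57.1, 57.3 and 35.9 in controls (log2 difference 0.57, and 0.35 against control 1 alone). For tgfb2 the values were 412, 334 and 367 at 10 ppm and 516, 462 and 511 in controls (log2 difference -0.42). Myostatin restrains muscle growth, and its gene mstnb had -0.47. The 24 genes of the list that holds inhbb (activin, inhibin and follistatin) had a median of 0.01.

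The keratocan gene kera, a small proteoglycan gene of the cornea, had 431, 409 and 624 at 10 ppm and 314, 232 and 256 in controls (log2 difference 0.85, SE 0.17, and 0.61 against control 1 alone; limma adjusted p = 0.454). In FPKM the means were 59.2 at 10 ppm and 24.3 in controls, a larger ratio than in the scaled counts, and there the gene passed (limma adjusted p = 0.0239 with a pseudocount of 1). It also passed with library weights and without control 1. Its own list of small proteoglycans and skeletal matrix genes had a median of 0.04. The integrin gene itgb4 of hemidesmosomes had 553, 581 and 611 at 10 ppm and 360.2, 439.9 and 367 in controls (log2 difference 0.58, SE 0.14). The basement membrane collagen gene col4a3 had 69.4, 81.6 and 77.4 at 10 ppm and 52.7, 49.0 and 51.1 in controls (log2 difference 0.57), and col17a1b, a hemidesmosomal collagen gene, had 0.43. Against control 1 alone the log2 differences were 0.69 for itgb4, 0.52 for col4a3 and 0.29 for col17a1b. The medians of the 41 collagens (0.02) and the 37 keratin and skin genes (0.05) were near that of all genes with all controls, but 0.30 and 0.21 against control 1 alone.

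A pair of keratin genes lay in opposite directions in the skin list. The keratin gene krt91 had 38382, 32686 and 38859 at 10 ppm and 24115, 32480.4 and 28691 in controls (0.37), with control 2 just below 10 ppm library 2. At low counts, krt93 had 8.27, 15.3 and 14.2 at 10 ppm and 30.8, 58.0 and 34.1 in controls (-1.61, SE 0.39, and -1.27 against control 1 alone). Related keratin genes share sequence, and fragments may have been split between them. The keratin gene krt1-c5 had 0.40. Summed counts of the keratinocyte markers krt4, krt5 and tp63 were 73060.3 to 100755 at 10 ppm and 70770.2 to 89916 in controls.

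Most members of the immune lists had higher means at 10 ppm, and 0 passed after adjustment. Class I histocompatibility molecules show peptides from inside the cell to T lymphocytes. The class I gene mhc1zba (ENSDARG00000036588) had 359.6, 353 and 323 at 10 ppm, against 134, 131 and 177 in controls. The 10 ppm values were close together and above all 9 other libraries (log2 difference 1.23, SE 0.26, and 1.36 against control 1 alone). Its relative mhc1zca had 90.9, 80.7 and 74.0 at 10 ppm and 41.3, 37.8 and 40.3 in controls (log2 difference 1.02, SE 0.26, and 0.97 against control 1 alone). Class I Z genes form a family of similar copies, and how fragments were shared between them is not known here. The light chain gene b2ml had 1916, 1455 and 1484 at 10 ppm and 1385, 1308 and 1261 in controls (0.29), and the peptide-trimming gene erap1a had 0.55. Over the list of antigen presentation 15 of 21 tested members were higher (median 0.28), 7 of them without overlap between the groups and 2 at an unadjusted p under 0.05, beside 5.55% and 2.89% of all genes. The median was 0.18 against control 1 alone and -0.02 when the clock score was a covariate. Its summed scaled counts were 4129 to 4817 at 10 ppm and 3965 to 4082 in controls.

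Leukocyte genes were higher in 24 of 28 tested cases, with a median of 0.24, beside 52.5% of all genes and 0.01. The neutrophil gene mpx had 153, 124 and 129 at 10 ppm and 112, 96.5 and 85.1 in controls (log2 difference 0.47, SE 0.22, and 0.27 against control 1 alone). The macrophage gene mpeg1.1 had 96.7, 63.0 and 63.2 at 10 ppm and 56.2, 52.5 and 44.8 in controls (log2 difference 0.51). The neutrophil protease gene npsn had 284, 153 and 189 at 10 ppm and 138, 151 and 86.0 in controls (log2 difference 0.73). For each of the 3 genes, 10 ppm library 1 was the highest of the 6 libraries. The deviation of the list by library was 0.31, 0.06 and 0.19 at 10 ppm and -0.18, -0.02 and 0.0024 in controls, without overlap. The median stayed positive against control 1 alone (0.32) and without 10 ppm library 1 (0.17). The 3 members at an unadjusted p under 0.05 were those named, all higher, beside 2.89% of all genes, and 0 passed after adjustment. The list also holds cpa5, a pancreas marker. The summed scaled counts of the leukocyte markers mpx, lyz and mpeg1.1 were 419 to 808 at 10 ppm and 316 to 477 in controls, which overlap. Innate immune and interferon genes were higher in 22 of 28 cases at a median of 0.10, with 0 at an unadjusted p under 0.05. Against control 1 alone 16 were higher and 12 lower.

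The rest of the higher genes of smallest p act in regulation and signalling. The transcription factor gene tfcp2l1, known from kidney and other epithelia, had 42.2, 46.8 and 84.8 at 10 ppm and 13.2, 19.6 and 17.9 in controls (log2 difference 1.67, SE 0.38, and 1.99 against control 1 alone). The RNA-binding protein gene fus had 1004, 1077 and 887 at 10 ppm and 632, 581 and 406 in controls (0.89, and 0.64 against control 1 alone), above all 9 other libraries. The galactosyltransferase gene b4galt1 had 90.9, 92.9 and 87.1 at 10 ppm and 53.6, 58.0 and 43.0 in controls (0.81), again above all 9. The kinase gene wnk1a, a regulator of ion transport, had 0.54 against all controls and 0.57 against control 1 alone. The log2 differences were 0.66 for dot1l, a histone H3 methyltransferase gene, 0.79 for the lipid phosphatase gene inppl1b, 0.56 for phldb2a and 0.53 for si:dkey-222f2.1. Against control 1 alone those of dot1l, inppl1b and phldb2a were 0.32, 0.46 and 0.27. Among the largest differences, spsb3b had 24.8, 51.7 and 47.8 at 10 ppm and 15.8, 9.09 and 2.69 in controls (log2 difference 2.24, and 1.27 against control 1 alone).

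Glucocorticoid and stress axis genes were higher in 20 of 28 cases with a median of 0.23. Enzyme genes of steroid handling led the list. The steroid reductase gene hsd20b2, which acts in the removal of cortisol, had 94.2, 173 and 109.8 at 10 ppm and 75.6, 72.7 and 69.0 in controls (0.74, SE 0.21, and 0.68 against control 1 alone), while cyp11c1, a gene of cortisol synthesis, had 12.4, 17.0 and 22.8 at 10 ppm and 9.67, 9.79 and 10.8 in controls (0.69). The receptor target gene fkbp5 did not separate the groups, with 195, 2019 and 2166 at 10 ppm and 319.8, 1283 and 69.9 in controls. By library the list deviated by -0.13, 0.24 and 0.46 at 10 ppm and 0.0024, 0.21 and -0.30 in controls, and its median was 0.08 without 10 ppm library 3.

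Of the body organs, muscle contractile genes were evenly divided, 39 higher and 39 lower, at a median of 0.0016, with 0 at an unadjusted p under 0.05 in either direction. Their median was 0.29 against control 1 alone. Exocrine pancreas enzyme genes were higher in 18 of 21 cases (median 0.32), and control 3 was the lowest of the 6 libraries. The list deviated by 0.28, 0.16 and -0.03 at 10 ppm and -0.15, 0.42 and -1.02 in controls, and without control 3 the median was 0.02. The carboxypeptidase gene cpa1 had 1669.7, 1827 and 1633 at 10 ppm and 1588, 1361 and 387 in controls. In the endocrine pancreas the glucagon gene gcga had 88.4, 67.8 and 89.3 at 10 ppm and 108, 101 and 118 in controls (-0.42, and -0.41 against control 1 alone). The endocrine markers ins, gcga and sst2 summed to 240.6 to 333 at 10 ppm and 314 to 393 in controls, which overlap. Liver genes had a median of 0.11, turning to -0.07 against control 1 alone. Pigment cell genes had a median of -0.09, 0.55 against control 1 alone and -0.50 against controls 2 and 3. The melanocyte markers dct, tyrp1b and pmela summed to 270.3 to 943 at 10 ppm and 199 to 1851 in controls, with control 1 lowest. Erythroid genes were lower in 14 of 21 cases (median -0.27) with 0 at an unadjusted p under 0.05. Their median was -0.52 without 10 ppm library 3, the highest of the 6, -0.08 without 10 ppm library 2 and 0.01 with library weights. Hox genes, which pattern the body axis, had a median of -0.05, and of 0.11 against control 1 alone. Among them hoxd11a had 0.50, and 0.97 against control 1 alone.

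**Figure D5:**
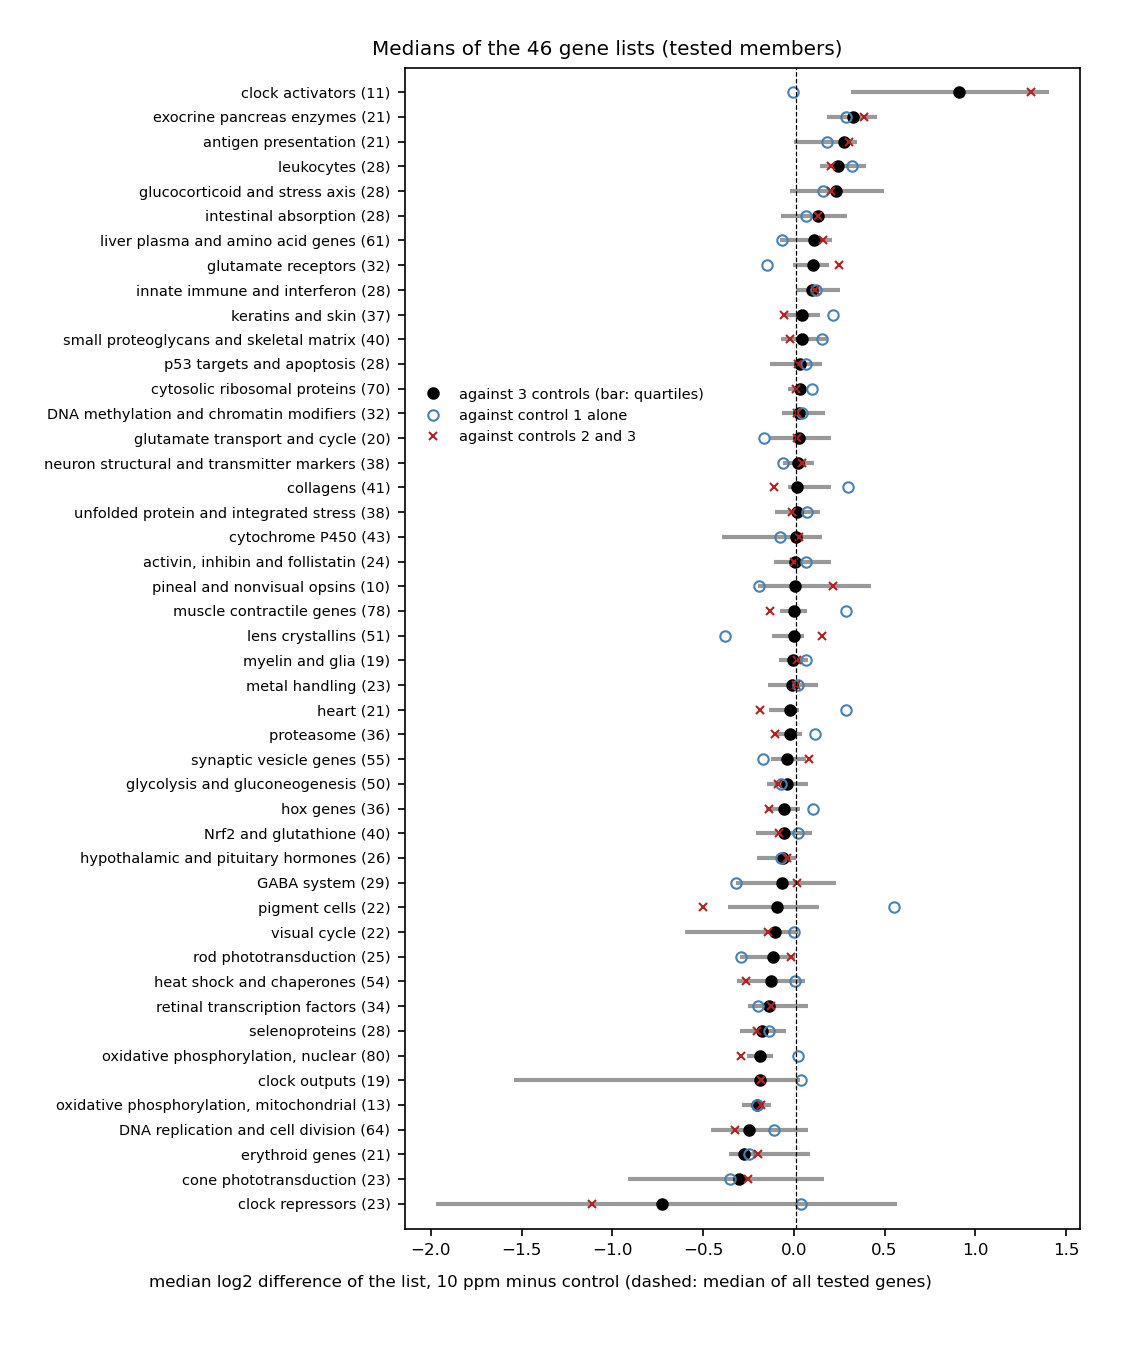
Median log2 difference (10 ppm minus control) of the tested members of the 46 gene lists against all 3 controls (black, with a bar between the quartiles of the members), against control 1 alone (open blue) and against controls 2 and 3 (red crosses), with the number tested in brackets. Among the lists that keep their side under the 3 choices are antigen presentation (0.28, 0.18 and 0.30), leukocytes, cone phototransduction, selenoproteins and mitochondrial oxidative phosphorylation. Clock, pigment and nuclear oxidative phosphorylation genes do not. Lists near the median of all genes can also keep their side, such as cytosolic ribosomal proteins (0.03, 0.10 and 0.01). The first choice pools the controls of the others, so the 3 are not separate checks. With the clock score as a covariate, which is not drawn, antigen presentation had -0.02.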

How the data were processed

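Total RNA of pools of 5 whole embryos was read as 100 base pair paired ends, per the labels. The submitters' processing notes name the build Zv9 and the tools TopHat, Cuffnorm, cutadapt, FastQC and CASAVA 1.8.2, and tool settings, annotation release and use of strand were not given in the sources used. Values in the deposited count table were fragment counts that the authors had divided by 1 factor per library, a scaled signal: 98.24% to 98.66% of the values below 1000 steps were whole multiples of the library's step, within 0.02 steps. The FPKM values, which the authors also deposited, were fragments scaled by transcript length and by library. How the factor of each library was set for them was not given in the sources used. The deposited tables gave symbols for 20495 genes and a gene names table for 1553, and 10626 rows had none. No genome of that build was used, so no coordinates or sequences are given.

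The main test was limma 3.58.1 (R 4.3.3) with a mean-variance trend and robust moderation on log2(scaled count + 1) of 18390 genes. All 12 libraries were in 1 fit with a mean per diet, and the contrast was 10 ppm minus control, two-sided, with Benjamini-Hochberg adjustment at 0.05 over all tested genes. Because the table was scaled, edgeR was not used. Recovered depth sets the precision of low counts. The labels give no batch or date.

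Genes named were, among genes with a symbol, the 15 of smallest p in each direction, the 5 largest non-overlapping differences in each direction, up to 4 genes of smallest p of each of 46 lists, and fixed markers, some of which are left out; others are said to be chosen after their values were seen. The members and lists were chosen with earlier results of these data known, and no list was tested. The fit was also run on simulated data, and the outcome is not reported here. Python 3.11.15 with pandas 2.3.3 and matplotlib 3.10.9 prepared tables and figures.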

Additional observations from a re-analysis of the deposited data

How the results depend on the processing

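The count of genes that passed with limma, 0 of 18390, was also 0 under 14 of the 18 alternatives, among them rescaling by trimmed means, a pseudocount of 5, limma-voom on recovered fragments, the 6 libraries alone, no filter (26971 genes tested), a minimum mean of 50 (12195 genes tested), the clock score as a covariate and control 1 alone. It was 1 with FPKM at a pseudocount of 0.1 and 1 at a pseudocount of 1, and 38 with library weights. Leaving out 1 library at a time gave 0 to 41 genes, the 41 without control replicate 1. Leaving that library out raises the count, and library weights gave it 0.449, against 1.85 and 1.03 for the other controls. The weights of the 10 ppm libraries also differed (0.615, 1.14 and 1.81). The cause of the higher counts was not tested. Of the 41, 7 are members of the clock lists, which hold 53 of the 18390 tested genes. The fit against control 1 alone also left out 1 ppm libraries 2 and 3, which like controls 2 and 3 had high per1b. Its control arm is 1 library, assumed to vary like the 3 and 10 ppm groups, which supply the spread. Of 1761 comparisons of 99 of the named genes with an alternative, 1716 kept their direction and their side of the threshold. Another 43 passed only under the alternative. The direction turned in 2, both with the clock score as a covariate, erap1a (-0.018) and cpa1 (-0.21). Other named genes were left out of this count, and some of them turned. The difference of gngt2a was 0.73, but -0.05 with the clock score and -0.01 against control 1 alone. That of snap25a was 0.02, but -0.05 with the clock score. The cause was not tested. Many named genes were chosen for a small p in these same values, and 0 passed in the main fit. The count of 1716 was thus largely set by that choice and is not separate evidence. The replicate block called 0 genes. Deviations of same-numbered 10 ppm and control libraries correlated at -0.05, 0.05 and -0.0049, and no library of 10 ppm correlated best with its own number. With 3 pairs, this cannot tell whether the numbers pair the samples. Clock scores by number were alike in the control (-3.55, 9.76 and 11.1) and 1 ppm libraries (-3.63, 6.85 and 9.29). Planned edgeR and DESeq2 fits were not run, because the deposited values are scaled.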
